A study of Drosophila melanogaster with 3 samples.

Results

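The testis and spermatocyte arrest genes described here are *betaTub85D*, *aly*, *can*, *sa*, *mia*, *topi*, *comr*, *tomb* and *bam*, 9 of the 17896 genes in the deposited table, and they were chosen by name. Their RNA was counted in whole *CycC* Y5 larvae of *Drosophila melanogaster*. These are homozygous for a null mutation that removes cyclin C, a subunit of the kinase module of Mediator. Total RNA of 10 larvae at the wandering stage went into each of 3 libraries. Larvae of w1118 and of *Cdk8* K185 were not analysed here, so every value below is a level within *CycC* Y5 larvae and no difference between genotypes is given. The sexes of the pooled larvae are not given in the sources used here. Maternal cyclin C carries homozygotes to the pupal stage, so these larvae had developed with some wild-type product from the mother. The labels do not say whether the pools came from separate cultures, so the spread between libraries may be partly technical.

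In the *Drosophila* testis, germline cells divide a fixed number of times and then enter a long spermatocyte stage, in which most of the genes needed for meiosis and for building sperm are switched on. A pair of protein assemblies does this. The testis TAFs are spermatocyte versions of subunits of the general transcription factor TFIID, and tMAC is a testis form of a complex that in other cells contains the regulators mip130 and mip120. Males that lack a subunit of either fill their testes with arrested spermatocytes, which gave the class its name. A wandering male larva carries small testes that hold spermatogonia and spermatocytes, whereas sperm appear later, in the pupa.

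Depth was 10222639, 10179342 and 12146443 counts in libraries 1, 2 and 3, and levels are given as CPM, counts scaled to a common total. For comparison between libraries the totals were rescaled by TMM, a trimmed mean of ratios that reduces the weight of the most abundant transcripts, with factors of 1.04, 1.07 and 0.893. *CycC*, the mutated gene, had 0 counts in each library. Of the 9 members, 8 had counts in every library and 4 reached the minimum of 10 counts per library that was required for a test of variation. The counting left a gene that lies wholly inside another gene almost without reads: all libraries were at 0 for 3236 of 3238 such genes, and for 14.6% of the 9227 genes that share no base with another. *sa* (FBgn0002842), which encodes the testis version of Taf8, is one of these nested genes. It lies on chromosome 3L at 21405425 to 21406738 (minus strand, release BDGP6, 3 exons), within *rgn*, and its 0 counts are not a measure of its expression, so it was set aside.

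*betaTub85D* stood far above the other members. It encodes the testis-specific beta tubulin used in the meiotic spindle and the sperm tail and is thus a structural gene, whereas the other members are regulators. The gene lies on chromosome 3R at 9408383 to 9410282 on the minus strand (FBgn0003889, 2 exons, 1841 exonic bases), with no other gene overlapping it. Libraries 1, 2 and 3 held 667, 1087 and 811 counts of *betaTub85D*, which is 65.2, 107 and 66.8 CPM, a mean of 79.6 ± 23.6 CPM (SD, n = 3). Library 2 was the high one, and libraries 1 and 3 lay close together. This gene alone supplied 76.1% of the 3371 counts on all members together. Per exonic kb its level was 43.2 ± 12.8 CPM (SD, n = 3), above that of 90.7% of the 17865 genes with an annotated length. These include genes at 0 in every library, which share rank 12721, whereas *betaTub85D* had rank 1661.

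Of the 7 members with counts other than *betaTub85D*, only *mia* and *topi* were counted at more than 2 CPM. *mia*, for meiosis I arrest, encodes the testis version of Taf6 and lies on chromosome 3R at 5548115 to 5551168 (FBgn0014342, minus strand, 3 exons). It had 115, 139 and 109 counts in libraries 1, 2 and 3, or 11.2, 13.7 and 8.97 CPM, a mean of 11.3 ± 2.34 CPM (SD, n = 3). *topi*, a zinc finger subunit of tMAC, lies on chromosome 3R at 9775121 to 9777943 (FBgn0037751, plus strand, 4 exons). Its 93, 112 and 132 counts correspond to 9.10, 11.0 and 10.9 CPM, a mean of 10.3 ± 1.06 CPM (SD, n = 3). *mia* was highest in library 2, while *topi* in CPM was lowest in library 1 and near equal in the other two. Together these genes made up 86.8% of the counts on the 7 members other than *betaTub85D*, which summed to 237, 285 and 284 counts, or 24.8 ± 2.72 CPM (SD, n = 3).

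The remaining members were scarce. *can*, or cannonball, is the testis version of Taf5 and lies on chromosome 3L at 10263909 to 10267111 (FBgn0011569, minus strand, 5 exons). It had 14, 11 and 14 counts in libraries 1, 2 and 3, a mean of 1.20 ± 0.150 CPM (SD, n = 3). *bam*, or bag of marbles, ends the dividing stage of the germline in both sexes and lies on chromosome 3R at 25243039 to 25245109 (FBgn0000158, minus strand, 3 exons). It had 8, 8 and 12 counts, a mean of 0.852 ± 0.118 CPM (SD, n = 3). At this level a few reads decide the value in each library.

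The other 3 members, all subunits of tMAC, were scarcer still. *tomb*, a protein with a cysteine-rich DNA binding region, lies on chromosome 2L at 5535861 to 5536758 (FBgn0031715, minus strand, 2 exons) and had 4, 8 and 5 counts, a mean of 0.530 ± 0.222 CPM (SD, n = 3). *aly*, or always early, lies on chromosome 3L at 3024129 to 3026521 (FBgn0004372, minus strand, 3 exons) and had 1, 5 and 10 counts, a mean of 0.471 ± 0.363 CPM (SD, n = 3). *comr*, or cookie monster, lies on chromosome 2R at 21864870 to 21866859 (FBgn0034667, minus strand, 1 exon) and had 2 counts in every library, a mean of 0.186 ± 0.0181 CPM (SD, n = 3). Equal counts of 2 do not make this level precise. The exact 95% interval of *comr* in library 1 ran from 0.0237 to 0.707 CPM, and intervals of this kind cover counting error only. For *aly* the interval was 0.00248 to 0.545 CPM in library 1 and 0.395 to 1.51 CPM in library 3. The intervals of its lowest and highest library overlapped, which is not a test that their counts agree. Across the table, 38.5% of the 9227 genes that share no base with another had a count under 10 in at least 1 library.

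**Figure D1:**
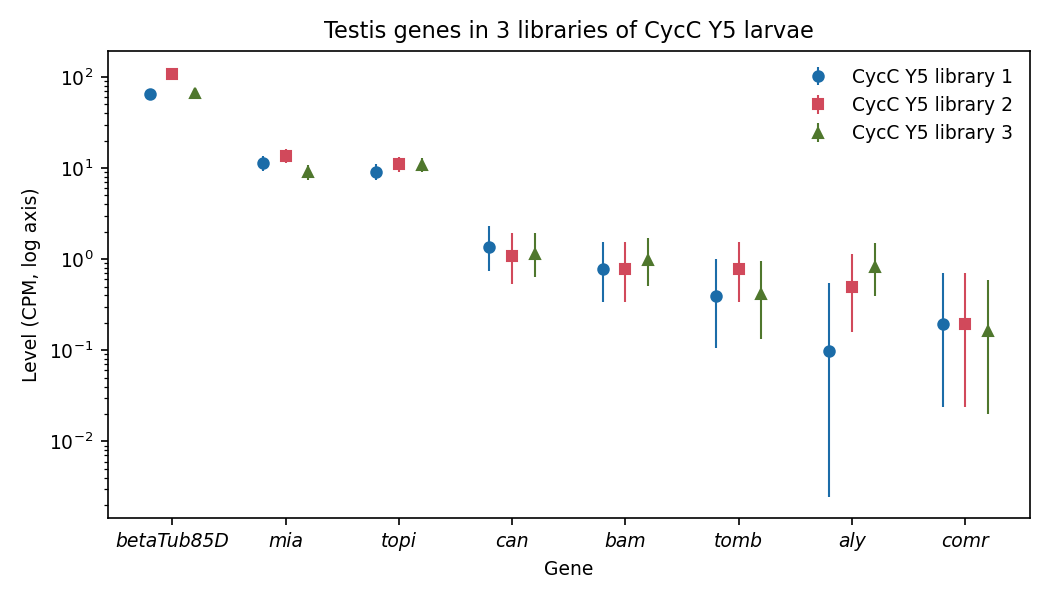
Level in CPM on a log axis of the 8 members with usable counts in each of the 3 *CycC* Y5 libraries, with exact 95% intervals for counting error as bars. *betaTub85D* sits between 65.2 and 107 CPM, *mia* and *topi* between 8.97 and 13.7 CPM, and the other 5 genes at or below 1.37 CPM with wide intervals.

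Neighbouring genes limited the reading of 2 of these values. *tomb* shares 98 bases, 10.9% of its span, with *Cap-D3*, which had 135 to 151 counts. *bam* shares 224 bases, 10.8% of its span, with *CG11854*, which had 4502 to 6199 counts and lies on the opposite strand. Whether the counting used strand is not given in the sources used here. However, *sa* on the minus strand was at 0 within *rgn* on the plus strand, as were 3236 of 3238 nested genes. Shared bases were thus mostly left without reads on either strand, and the few counts of *bam* may lack reads from its 224 shared bases. The other 6 usable members overlap no gene of the table.

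Per exonic kb the order of mean levels was *betaTub85D* at 43.2 CPM, *mia* at 4.36 ± 0.904, *topi* at 3.89 ± 0.401, *tomb* at 0.634 ± 0.266, *bam* at 0.438 ± 0.0604, *can* at 0.407 ± 0.0509, *aly* at 0.208 ± 0.160 and *comr* at 0.0933 ± 0.00911 CPM (SD, n = 3 each). Each gene was compared with the next one down within each library, where no scaling enters, as a log2 ratio of counts per exonic kb with 0.5 added to each count. The wide steps were from *betaTub85D* to *mia*, with a log2 ratio of 3.29 ± 0.23 (SD, n = 3), and from *topi* to *tomb*, with 2.57 ± 0.45 (SD, n = 3). In both pairs the gene named first was higher in 3 of 3 libraries (two-sided exact permutation test by sign flips, p = 0.25 and, with Benjamini-Hochberg adjustment over 7 pairs, 0.44). With 3 libraries this test cannot give a p below 0.25.

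The steps between the other neighbours were smaller than their SD. *mia* and *topi* differed by a log2 ratio of 0.15 ± 0.34 (SD, n = 3), with *topi* the higher in library 3 (exact p = 0.50, adjusted p = 0.58), and *bam* and *can* by 0.13 ± 0.28 (SD, n = 3; exact p = 0.75, adjusted p = 0.75). *tomb* exceeded *bam* in 3 of 3 libraries, by 0.52 ± 0.62 (SD, n = 3; exact p = 0.25, adjusted p = 0.44). *can* exceeded *aly* in 3 of 3 libraries by 1.22 ± 1.48 (SD, n = 3), the single *aly* count of library 1 giving a ratio of 2.89 there (exact p = 0.25, adjusted p = 0.44), and *aly* exceeded *comr* in 2 of 3 by 0.64 ± 1.43 (SD, n = 3; exact p = 0.50, adjusted p = 0.58). Single libraries set the values of *aly*: *can* to *aly* was 0.38 without library 1, *aly* to *comr* was 0.012 without library 3 and 1.42 without library 1, and the mean of *aly* itself was 0.295 CPM without library 3. Without library 2, *tomb* to *bam* was 0.17 and *mia* to *topi* 0.049, and the pair was at 0.052 without library 1 and 0.34 without library 3. The members thus fell into 3 tiers, *betaTub85D*, then *mia* with *topi*, then the 5 scarce genes, and the order inside the lower tiers was not resolved at this depth. On plain counts, without length, the mean order of *bam* against both *tomb* and *can* turned round, to log2 ratios of -0.70 for *tomb* to *bam* and -0.47 for *bam* to *can*.

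**Figure D2:**
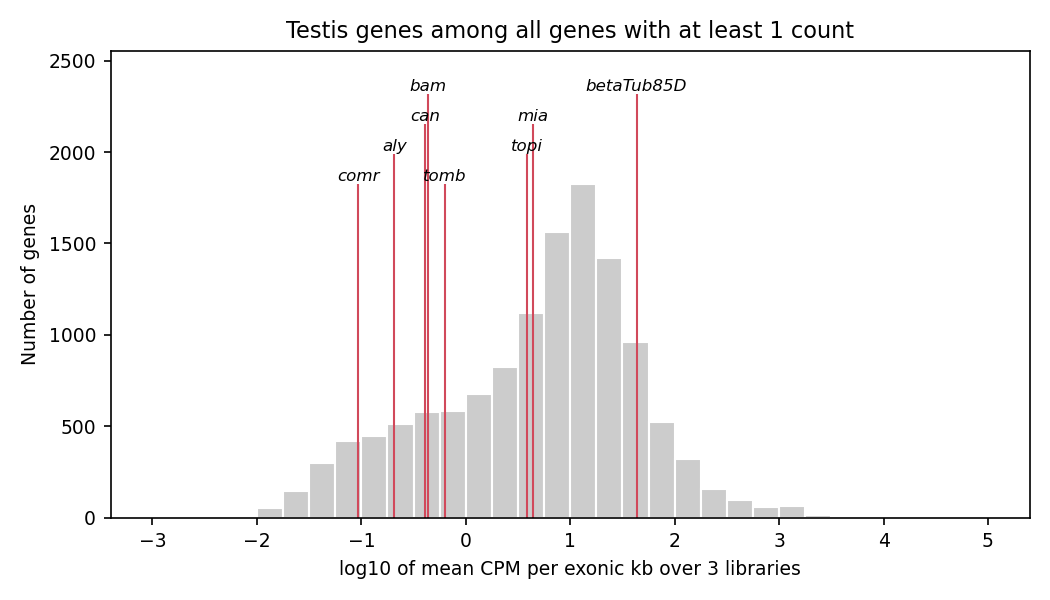
Number of genes of the table with at least 1 count by the log10 of their mean CPM per exonic kb over the 3 *CycC* Y5 libraries (grey bars), with a red line at each of the 8 usable members. *betaTub85D* lies above 90.7% of all ranked genes, *mia* and *topi* above 57.5% and 56.4%, and the other 5 members above between 33.8% and 43.3%. The ranked genes include those at 0, which share rank 12721 of 17865 and are not drawn, among them nested genes such as *sa*. Before that rank, *mia* stood at 7584, *topi* at 7797 and *comr* at 11833, so the percentages overstate their place among the genes drawn.

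Subunits of one complex were thus counted at unequal levels. Of the testis TAFs, *mia* was followed far below by *can* and by *nht*, or no hitter, the testis version of Taf4, which had 6, 7 and 7 counts (0.617 ± 0.0615 CPM, SD, n = 3). *Taf12L*, listed as *rye*, is nested in another gene and at 0, as *sa* is. Of the tMAC list, all 10 genes had counts. *mip40* at 22.4 ± 0.825 CPM and *Caf1-55* at 112 ± 16.1 CPM (SD, n = 3 each), which tMAC shares with the complex of other cells, were the most counted. The homeodomain gene *achi* was at 10.5 ± 1.66 CPM, or 4.08 CPM per exonic kb, beside 3.89 for *topi*, whereas its tandem copy *vis*, at 0.934 ± 0.260 CPM, was in the scarce tier, and reads shared by these close copies could have been split or dropped. *kmg* and *wuc*, further regulators of spermatocytes, had 9 to 14 and 2 to 7 counts.

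The 5 testis genes with usable counts and a listed counterpart were each below the general gene that they resemble. Per exonic kb the log2 ratio was -2.09 ± 0.29 for *mia* to *Taf6*, -4.83 ± 0.14 for *can* to *Taf5*, -4.89 ± 0.17 for *nht* to *Taf4*, -6.07 ± 1.45 for *aly* to *mip130* and -3.55 ± 0.53 for *tomb* to *mip120* (SD, n = 3 each). The general gene was higher in 3 of 3 libraries in all 5 pairs (exact p = 0.25, the smallest possible, and 0.25 after adjustment over the 12 ratios computed). *mia* came nearest to its counterpart: *Taf6*, at 18.4 CPM per kb, was 4.24-fold higher, whereas *Taf5* was 28.4-fold higher than *can*. *mip130* shares 71.6% of its span with other genes, so its own count is uncertain. Dividing the same counts by only the exonic bases outside other genes gave -6.19 ± 1.45 for *aly* to *mip130* and -3.37 ± 0.53 for *tomb* to *mip120* (SD, n = 3 each). This changes the length alone, and no reads were recounted. In whole larvae, fewer cells that express a gene and less RNA in each such cell cannot be told apart.

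**Figure D3:**
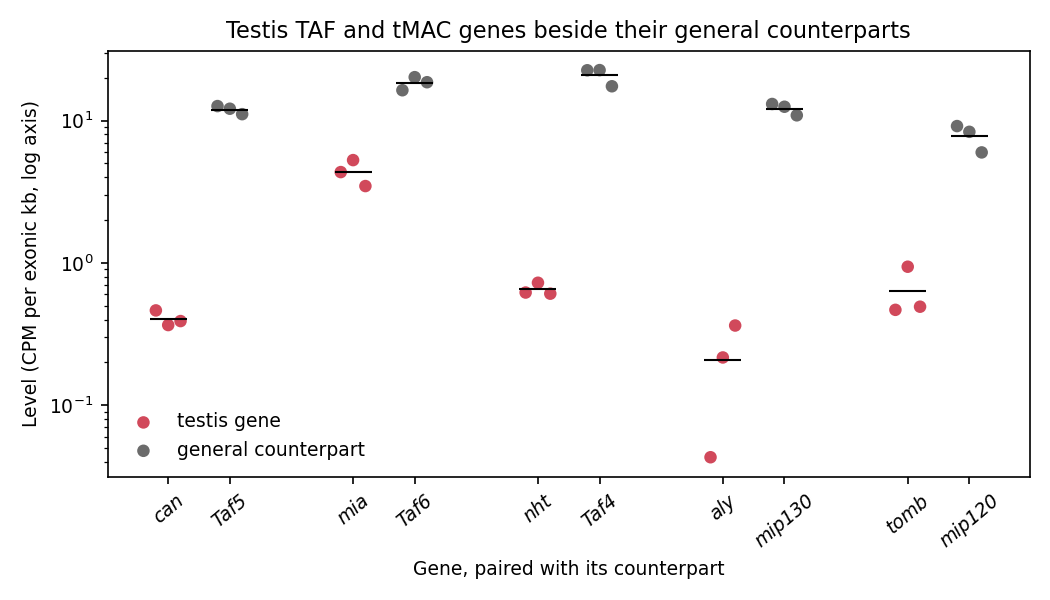
Level in CPM per exonic kb, on a log axis, of 5 testis genes (red, left of each pair) and of the general gene each resembles (grey, right), with a point for each *CycC* Y5 library and a line at the mean. Every red point lies below every grey point of its pair, and *mia* with *Taf6* is the closest pair.

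Per exonic kb *betaTub85D* lay above 1 of the 3 other beta tubulins listed and below the other two. *betaTub56D*, the main beta tubulin of most cells, was at 1834 ± 60.1 CPM, *betaTub60D*, a form found in muscle, at 172 ± 44.3 CPM and *betaTub97EF* at 40.9 ± 0.985 CPM (SD, n = 3 each). Per exonic kb the log2 ratio of *betaTub85D* was -4.54 ± 0.35 to *betaTub56D*, -0.66 ± 0.28 to *betaTub60D* and 0.94 ± 0.41 to *betaTub97EF* (SD, n = 3 each), with the same sign in 3 of 3 libraries each time (exact p = 0.25, adjusted p = 0.25). Coding sequences of tubulins are much alike, and how reads that fit several genes were treated is not given in the sources used here, so some counts may belong to another member of the family.

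*bam* was also compared with its partners in the switch from division to differentiation. *bgcn*, which encodes the protein that binds Bam, had 47, 43 and 44 counts, *tut*, the third partner in males, had 162, 159 and 151, and *mei-P26*, a TRIM protein also active in nerve and ovary, had 693, 596 and 570 counts in libraries 1, 2 and 3. *bam* was below *bgcn* by a log2 ratio per exonic kb of -1.13 ± 0.34 and below *tut* by -4.92 ± 0.37 (SD, n = 3 each), with the same sign throughout (exact permutation p = 0.25, also after adjustment). The factors *twe*, the meiotic Cdc25, and *bol*, which controls its translation, were at 9.96 ± 0.925 and 80.1 ± 12.8 CPM, and *Rbp4*, an RNA binding protein of spermatocytes, at 2.63 ± 0.448 CPM (SD, n = 3 each).

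Variation between libraries was tested for every feature with at least 10 counts in each library, with a chi-square test that sets the counts against the TMM library sizes. The test compares libraries and not conditions. Of 9898 features, 39.8% varied beyond counting noise (Benjamini-Hochberg adjusted p under 0.05), which is 3943 features, and 1650 without library 3. Of the 4 members tested, 1 did. *betaTub85D* varied with an adjusted p of 5.6e-21 (chi-square test with Benjamini-Hochberg adjustment over all features), at 62.4, 99.7 and 74.7 CPM in libraries 1, 2 and 3 on the TMM scale, and the call remained when any library was left out (adjusted p from 5.3e-20 without library 3 to 0.0027 without library 2). For *mia* (adjusted p = 0.26), *topi* (adjusted p = 0.097) and *can* (adjusted p = 0.85) no variation beyond counting noise was detectable at this depth by the same test. The spread of *topi* did pass without library 2 (adjusted p = 0.042), and that of *mia* passed when total counts replaced the TMM library sizes (adjusted p = 0.0087), a scale on which 5950 features passed. Without the minimum of 10 counts, *aly* had an adjusted p of 0.070, and *bam*, *tomb* and *comr* had adjusted p of 0.72, 0.64 and 1.0 in that test, with 30.7% of 12843 features called.

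The biological coefficient of variation, the part of the spread beyond counting noise as edgeR estimates it, was 0.190 for *betaTub85D*, 0.139 for *mia*, 0.156 for *topi* and 0.151 for *can*, beside a common value of 0.171 over the 9898 features. These estimates borrow strength from all features, and the one for *can* rests on 39 counts in all. The chi-square test detects smaller differences at higher counts. *betaTub85D* had 2565 counts in all, against 363 for *mia* and 337 for *topi*, so its call alone does not rank its spread above theirs.

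Most of the listed spermatid genes with enough counts were, like *betaTub85D*, highest in library 2. The list held 23 genes known from spermatids, of which 4 are nested in another gene. *Mst84Da* and *ProtB* were also at 0, which may not measure their expression. *Mst84Da* shares 78.5% of its span with other genes. *ProtB* stands beside *ProtA*, which had 111, 177 and 129 counts, and how reads that fit several genes were treated is not given. Of the list, 17 genes reached the minimum count. They include the sperm leucine aminopeptidases, such as *S-Lap1* with 1311, 1927 and 1350 counts, *S-Lap3* with 717, 1008 and 741 and *S-Lap2* with 599, 819 and 615, and the related gene *loopin-1* with 952, 1403 and 978 counts in libraries 1, 2 and 3. Each of these was highest in library 2. On the TMM scale 16 of the 17 were highest in library 2, as were 30.1% of all tested features, and the exception was *Mst84Db* with 122, 186 and 188 counts. Variation between libraries was called for 16 of the 17, against 39.8% of all tested features, *Mst84Dd* being the exception (adjusted p = 0.39, chi-square test with Benjamini-Hochberg adjustment). Without library 2 it was called for 1 of the 17, against 32.3% of 9960 features tested in that fit. Without library 1 it was called for 11, against 29.8% of 10037 features, and without library 3 for 15, against 16.5% of 9979 features. Called and highest in library 2 were 15 of the 17, against 9.83% of all tested features. The other lists of the male germline did not share this. Highest in library 2 were 1 of 2 tested testis TAFs and 0 of 4 tested genes of the tMAC list. So were 0 of 3 tested genes of the differentiation switch and 1 of 3 tested meiotic genes, against 30.1% of all tested features. None of these was both called and highest there. Below the minimum count, *tomb*, *kmg* and *wuc* were highest in library 2 on the TMM scale, and *aly*, *comr*, *vis*, *nht* and *bam* were not. Their values rest on few reads. The spermatid list is a choice of genes already known to share an organ, so its members are not independent of each other. Shares over all tested features were not matched to the list by count level.

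The size of the difference in *betaTub85D* lay inside the range of the list. On the TMM scale the log2 ratio of library 2 over the average of libraries 1 and 3 was 0.54 for *betaTub85D*, and it had a median of 0.49 over the 17 spermatid genes, with a range of 0.25 to 0.79, beside a median of -0.0096 over all tested features. For *mia* it was 0.29, for *topi* -0.023 and for *can* -0.37, and for the summed 7 members other than *betaTub85D* 0.11. As a share of its own counts plus those of the 17 genes, *betaTub85D* took 10.1% in library 1 (exact 95% interval 9.38% to 10.8%). Its share was 11.2% in library 2, with bounds of 10.6% and 11.8%, and 11.4% in library 3, with bounds of 10.7% and 12.2%, for a mean of 10.9% ± 0.70 (SD, n = 3). These intervals overlap. The 7 other members took 3.84%, 3.20% and 4.32% by the same measure (intervals 3.37% to 4.35%, 2.84% to 3.58% and 3.84% to 4.84%), lowest in library 2. There the interval did not overlap that of library 3.

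**Figure D4:**
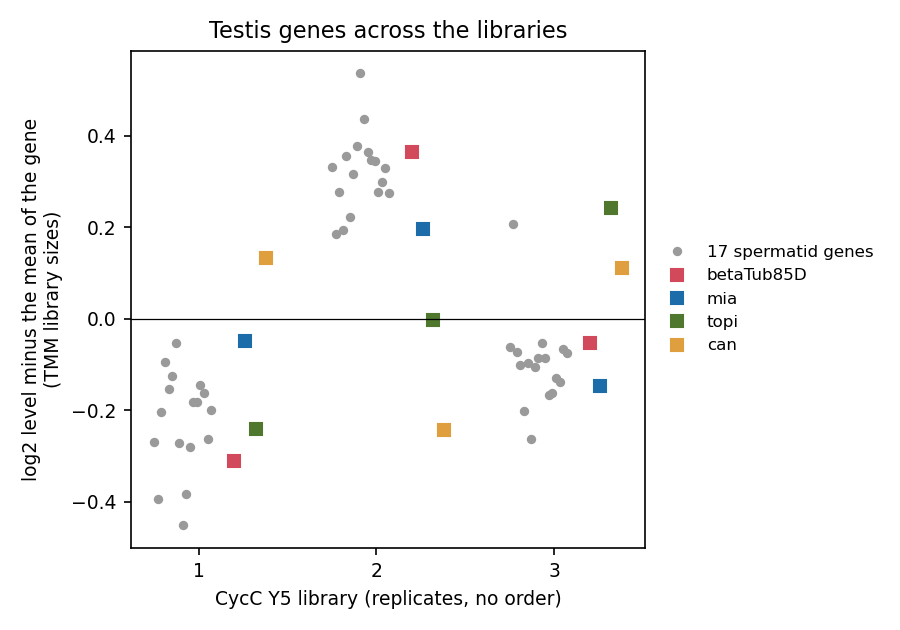
log2 level on the TMM scale minus the mean of each gene, in the 3 *CycC* Y5 libraries, for the 17 spermatid genes (grey points), *betaTub85D*, *mia*, *topi* and *can* (coloured squares). In library 2 *betaTub85D*, *mia* and the grey points all lie above 0, *topi* lies at about 0 and *can* below it.

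The values of *roX1* and *roX2*, 2 RNAs made in males, were also highest in library 2. These noncoding RNAs of the male dosage compensation complex had 4968, 5931 and 4444 counts and 161, 237 and 179 counts in libraries 1, 2 and 3. On the TMM scale library 2 exceeded the mean of libraries 1 and 3 by 0.31 and 0.46 on the log2 scale, and both varied beyond counting noise (adjusted p = 7.3e-45 and 0.0021, chi-square test with Benjamini-Hochberg adjustment), where 9.83% of all tested features were called and highest in library 2. Of the 3 other beta tubulins listed, 1 was highest in library 2. This was the muscle form *betaTub60D*, which is not particular to males and had 1811, 2174 and 1524 counts. Its excess in library 2 was 0.36 on the log2 scale, and it was called as well (adjusted p = 1.1e-23 by the same chi-square test). For *betaTub56D* and *betaTub97EF* the same log2 ratio was -0.072 and -0.16, and both were highest in library 3 on the TMM scale. Within libraries the log2 ratio per exonic kb of *betaTub85D* was 1.62, 1.77 and 1.75 to *roX2* and -1.33, -0.88 and -0.88 to *roX1*. The ratio to *roX2* spread little (SD 0.081, n = 3), and that to *roX1* was lower in library 1 than in the other two. The part of the share of male larvae in the high values of library 2 was not tested, and the numbers of males per library are not given in the sources used here.

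Of the listed germline genes used in both sexes, 3 reached the minimum count, and 1 of them was highest in library 2, as were 30.1% of all tested features. *aub* and *piwi*, of the piRNA pathway, had 52, 48 and 45 and 52, 36 and 35 counts in libraries 1, 2 and 3, so neither was highest in library 2. *vas*, a germline RNA helicase, had 17, 32 and 25 counts, with library 2 the highest, but 82.8% of its span is shared with other genes. For none of these 3 was variation beyond counting noise detectable (adjusted p = 0.81, 0.17 and 0.21 for *aub*, *piwi* and *vas*, chi-square test with Benjamini-Hochberg adjustment). *zpg*, nested in another gene, and *nanos*, with 92.6% of its span shared, were at 0.

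The features most like the summed members across the libraries were *lncRNA:CR32652* with 186, 283 and 226 counts, *CG9861* with 146, 225 and 177 and *CG31740* with 288, 435 and 343 counts. Likeness was the distance between log2 CPM values centred over the 3 libraries, and these lay at 0.0034, 0.018 and 0.018 from the members, whose sum is mostly *betaTub85D*. Among 7044 features with at least 100 counts in every library, 39 lay within 0.1, and 3 libraries of one genotype cannot rank them further.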

How the data were processed

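Total RNA of whole wandering *CycC* Y5 larvae was sequenced in 3 libraries of 10 larvae each. The authors deposited raw read counts, for 17896 genes in one table and 124 transposon families in another. The submitters' processing notes name STAR and the build dm6, without versions, and the counting program is not given in the sources used here. Every listed gene length is that of the span, introns included. In the transposon table, which entered only the library totals, each column name sits 1 cell left of its values. A further 11 columns hold other libraries and stayed out of every step. For 99.8% of 17819 genes on named chromosomes, and for all 9 members, the coordinates equal those of BDGP6.54 (Ensembl release 115), which gave exons and exonic lengths. Symbols were found for 17864 genes. *rye*, *Mst35Ba*, *Mst35Bb*, *nos*, *roX1* and *roX2* were matched as *Taf12L*, *ProtA*, *ProtB*, *nanos*, *lncRNA:roX1* and *lncRNA:roX2*.

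One genotype gives edgeR's quasi-likelihood test nothing to contrast, so levels are means with SD. Variation was tested by chi-square, pairs by exact sign-flip permutation, and coefficients of variation were estimated by edgeR 4.0.16 in a model of the mean alone, with DESeq2 1.42.0 as an alternative (R 4.3.3, Python 3.11.15, NumPy 2.4.6, pandas 2.3.3, SciPy 1.17.1, matplotlib 3.10.9). Adjusted p under 0.05 was called. The members, lists and tests were chosen with earlier results of these data known. The genes named were the 9 members, the genes overlapping them, the listed genes needed for a comparison (up to 5 of a list by mean CPM were planned, and further genes of a list were named after their values were seen) and the 3 features nearest in pattern. The ratios to counterparts were added after the data were seen. On counts simulated with counting noise alone, 195 of 197 tested features that had been raised 3 times in library 2 were called, with 7 unchanged ones, among 10013 features. Spread between pools was not simulated, so this does not show how the test behaves where such spread is present. A search for promoter motifs was not run, because no sequence was used here.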

Additional observations from a re-analysis of the deposited data

How the results depend on the processing

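No paired analysis was possible because only *CycC* Y5 larvae were analysed. The numbers of features that varied between libraries were 3943 with the TMM library sizes, 5950 with total counts and 1650 to 3217 across the fits without 1 library, the lowest being without library 3; the cause was not tested. DESeq2's dispersion gave a coefficient of variation of 0.361 for *can*, against 0.151 from edgeR; the cause was not tested. With the listed length, which includes introns, the log2 ratio of *mia* to *topi* was -9.3e-05 instead of 0.15. Without length, a scale on which longer genes gain, *tomb* to *bam* was -0.70 and *bam* to *can* -0.47, and without library 3 *bam* to *can* was -0.0016 (range with each library left out -0.0016 to 0.28). The pairs not named so far kept their direction under the alternatives run, but not all kept their size. Over the fits without 1 library, *can* to *aly* ran from 0.38 to 1.79 and *aly* to *comr* from 0.012 to 1.42. Of the pairs named above, *tomb* to *bam* ran from 0.17 to 0.76 and *mia* to *topi* from 0.049 to 0.34 over the same fits. The mean of *aly* ran from 0.295 to 0.657 CPM. Genes under about 10 counts are limited by depth.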
